A study of Mus musculus with 41 samples.

Results

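The genes described here are 10 transcription factors of the gut mesenchyme, the layer that surrounds the embryonic intestinal epithelium and gives rise to its connective tissue and smooth muscle. They were Foxf1, Foxf2, Tcf21, Wt1, Barx1, Nkx2-3, Nkx3-2, Twist1, Twist2 and Osr1, taken by symbol from a list of known mesenchymal regulators, and all 10 were found among the 23366 gene symbols counted. They were chosen with earlier results of these data known. The series followed intestinal epithelial progenitors and stem cells of the mouse with and without Id2, and comprised 41 RNA-seq libraries in 15 groups. Levels are CPM, a gene's counts divided by the library's total of gene counts in mega-counts, and log2 fold changes, standard errors (SE) and adjusted p come from edgeR's quasi-likelihood F test with Benjamini-Hochberg adjustment over all genes tested, with a call at an adjusted p under 0.05.

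All mice had a mixed C57BL/6 and CD1 background, and each library started from 250 cells sorted by flow cytometry. At embryonic day 11.5 (E11.5) there were 5 groups of 3 libraries each, every library made from a single embryo according to the labels. These were Id2KO mesenchyme (EpCAM- cells), wild-type (wt) mesenchyme, Id2KO Lgr5+ epithelium (Lgr5-EGFP+EpCAM+ cells), Id2KO EpCAM+ epithelium and wt EpCAM+ epithelium. At E13.5, Lgr5+ and EpCAM+ epithelium had 4 libraries each from pools of 6 to 12 embryos, and the labels name no genotype. Adult Lgr5+ intestinal stem cells (ISC) of postnatal day 60 comprised 4 libraries with no genotype named and 14 from the anterior, middle or posterior small intestine, labelled Id2KO or wt (n = 2 per group), with an added Tomato+ posterior Id2KO group (n = 2). The labels do not describe the Id2 allele or the Tomato reporter. The EpCAM- sort does not by itself exclude blood, vessel or nerve cells. In the mesenchyme libraries endothelial genes summed to 1.84 to 9.59 CPM and macrophage genes to 1.48 to 3.36 CPM. Neural crest genes summed to 71.7 to 235 CPM there. No mesenchyme group is labelled after E11.5, and no wt Lgr5+ group at E11.5.

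Gene counts per library, in mega-counts, were 31.7 to 38.9 at E11.5, 29.997 to 51.2 at E13.5, 28.2 to 31.1 in the adult ISC group and 13.6 to 20.3 in the adult segments. Id2 set the E11.5 genotypes apart, with 114 to 172 CPM in Id2KO mesenchyme against 2180 to 2760 CPM in wt mesenchyme, and 159 to 182 CPM in Id2KO EpCAM+ cells against 5308 to 6600 CPM in wt EpCAM+ cells. Id2KO Lgr5+ cells had 108 to 159 CPM. Over the adult segments together Id2 went against the labels, with a log2 fold change of 0.66 ± 0.11 (SE, adjusted p = 0.0025, edgeR) for libraries labelled Id2KO over libraries labelled wt. By segment, Id2 averaged 197 CPM in Id2KO and 83.8 CPM in wt anterior, 106 and 113 CPM in middle, and 148 and 80.1 CPM in posterior libraries, so the middle segment did not share that direction. The sorts separated the layers, since a list of 8 epithelial genes summed to 64.8 to 128 CPM in the mesenchyme libraries and to 4927 to 7010 CPM in the E11.5 epithelial libraries. Red blood cell genes took 2.47 to 5.96% of the counts in Id2KO mesenchyme and 22.2 to 26.9% in wt mesenchyme. The wt E11.5 libraries, labelled as single embryos, each held both Xist, the X-inactivation RNA, and the Y-linked Ddx3y, at 152 to 575 and 9.23 to 25.8 CPM, while each Id2KO library held one at over 100 CPM and the other under 2 CPM. Genotype and this mixture of sexes cannot be told apart at E11.5.

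In the developing gut, Sonic and Indian hedgehog leave the epithelium and act on the mesenchyme, where GLI factors switch on the forkhead genes Foxf1 and Foxf2. Tcf21, Twist1 and Twist2 encode basic helix-loop-helix (bHLH) proteins, which bind DNA at E-boxes as dimers, often with E proteins. Id2 belongs to the inhibitors that bind E proteins and keep such dimers off DNA. Nkx2-3, Nkx3-2 and Barx1 are homeobox genes of the mesenchyme along the gut tube, Wt1 marks the mesothelium that covers the organ, and Osr1 is a zinc finger gene of early mesoderm.

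Promoter sequences are shown for the 4 members with a RefSeq promoter entry and a mean of at least 50 CPM in wt mesenchyme, because these genes shared a pattern of expression and 2 of the 4 encode E-box binding proteins. Each run is the 250 bases before the start site, 5′ to 3′ on the gene's strand, in assembly GRCm38.p6, and capitals mark matches to the E-box CANNTG or to the GLI core CCACCCA on either strand. Foxf2 lies on the plus strand at chr13:31625566-31625815, Tcf21 on the minus strand at chr10:22820144-22820393, Nkx2-3 on the plus strand at chr19:43612075-43612324 and Twist2 on the plus strand at chr1:91801211-91801460.
Foxf2: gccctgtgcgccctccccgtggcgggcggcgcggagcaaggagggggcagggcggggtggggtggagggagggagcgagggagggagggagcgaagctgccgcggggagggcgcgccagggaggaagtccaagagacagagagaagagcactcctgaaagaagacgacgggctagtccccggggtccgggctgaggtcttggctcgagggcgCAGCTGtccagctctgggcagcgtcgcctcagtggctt
Tcf21: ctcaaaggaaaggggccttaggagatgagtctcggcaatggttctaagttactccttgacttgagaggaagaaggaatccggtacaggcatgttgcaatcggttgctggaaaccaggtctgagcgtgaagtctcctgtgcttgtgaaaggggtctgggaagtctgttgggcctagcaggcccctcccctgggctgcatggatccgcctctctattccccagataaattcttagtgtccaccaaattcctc
Nkx2-3: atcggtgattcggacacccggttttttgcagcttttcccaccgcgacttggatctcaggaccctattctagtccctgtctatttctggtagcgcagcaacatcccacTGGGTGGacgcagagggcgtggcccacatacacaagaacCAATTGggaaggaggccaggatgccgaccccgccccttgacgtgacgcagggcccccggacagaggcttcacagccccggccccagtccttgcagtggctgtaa
Twist2: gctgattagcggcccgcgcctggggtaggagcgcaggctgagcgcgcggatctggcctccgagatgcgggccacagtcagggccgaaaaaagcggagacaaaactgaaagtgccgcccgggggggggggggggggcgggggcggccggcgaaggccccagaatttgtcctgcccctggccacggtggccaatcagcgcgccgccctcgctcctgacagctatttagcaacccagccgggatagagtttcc
The Foxf2 run holds the E-box CAGCTG with its first base 38 bases before the start site. The Nkx2-3 run holds the E-box CAATTG 104 bases before the start and a GLI core match on the opposite strand 143 bases before it, and the Tcf21 and Twist2 runs hold no match.

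Entries were found for 7 of the 10 members, all but Foxf1, Wt1 and Osr1, and the search covered 300 bases, from 250 before to 50 after the start. An E-box CANNTG was in 3 of the 7, against 72.3% of 32851 RefSeq promoters of this length. The E-box CAGCTG, which is one form of CANNTG, was in 2 of the 7, against 16.3% of promoters. The GLI core CCACCCA was in 2 of the 7, against 9.30%. The forkhead core TGTTTAC and the NK2 core CACTTAA were in 0 of the 7, against 3.65% and 2.41%. A match describes letters in these windows only.

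**Figure D1:**
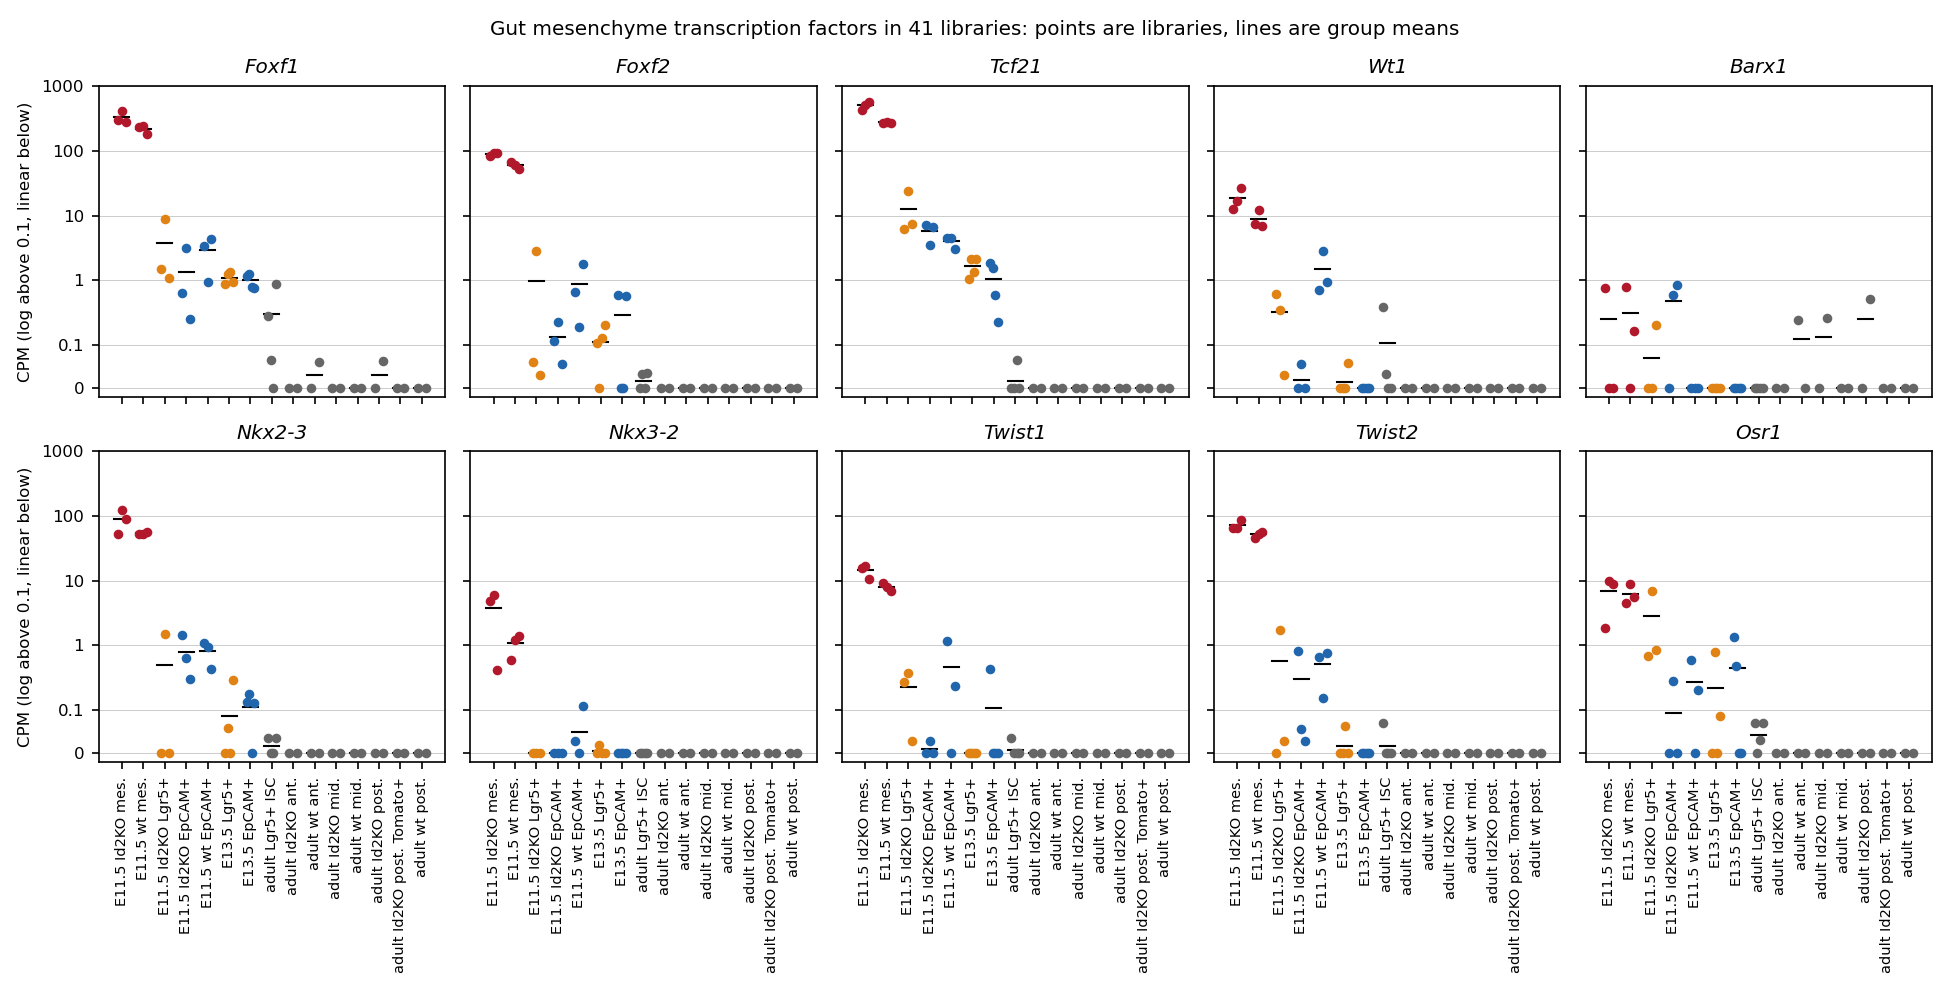
CPM of each of the 10 genes in every library of the 15 groups (points) with group means (lines), on an axis that is linear up to 0.1 and logarithmic above. For 9 genes other than Barx1 the highest group means are those of the 2 mesenchyme groups, and in the 14 adult segment libraries no gene exceeds 0.506 CPM.

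Mesenchyme at E11.5 held most of the signal of the set. The 10 members summed to 960, 1251 and 1171 CPM in Id2KO mesenchyme and to 682, 719 and 645 CPM in wt mesenchyme. They summed to 9.36, 46.9 and 9.64 CPM in Id2KO Lgr5+ cells, to 10.03, 8.62 and 8.16 CPM in Id2KO EpCAM+ cells, and to 12.9, 9.56 and 11.9 CPM in wt EpCAM+ cells. The sums then lay at 1.40 to 5.50 CPM in the 8 epithelial libraries of E13.5 and at 0.0964 to 1.02 CPM in the 4 adult ISC libraries. They lay at 0 to 0.569 CPM in the 14 adult segment libraries. The sums of the mesenchyme libraries did not overlap with those of any epithelial library. Of the 10 members, 9 were higher in every mesenchyme library than in any EpCAM+ library in Id2KO and also in wt embryos, against 16.6% and 11.5% of all genes tested.

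Per kilobase of merged exon, so that genes can be set side by side, Tcf21 was the most abundant member, with a mean of 213 CPM per kb in Id2KO mesenchyme and 117 in wt mesenchyme. Foxf1 followed with 138 and 90.1 CPM per kb in the same order of genotypes. Nkx2-3 had 42.0 and 25.6 CPM per kb, Foxf2 had 37.7 and 25.3, and Twist2 had 22.9 and 16.4. The order of Nkx2-3 and Foxf2 differed by less than the spread among the Id2KO libraries. Twist1 had 8.86 and 4.89 CPM per kb. The other 4 members were lower, with Osr1 at 3.34 and 3.06 CPM per kb, Wt1 at 2.99 and 1.44, Nkx3-2 at 2.18 and 0.629, and Barx1 at 0.180 and 0.227. Lengths are from GENCODE M21 on GRCm38, whereas the authors list the assembly mm9.

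Within each genotype, 9 of the 10 members were called higher in mesenchyme than in EpCAM+ epithelium. In wt embryos 9 were called higher and 0 lower, where 10.7% of the 15680 genes tested were called higher. In Id2KO embryos 9 were called higher and 0 lower, where 10.8% were called higher. Barx1 missed the threshold in both. With any 1 library left out, 7 or 8 members were called in wt embryos. The median log2 fold change of the 10 members was 6.47 in wt embryos and 7.95 in Id2KO embryos, against medians of -0.01 for all genes tested in each. With members at 0 counts on the epithelial side set at their lower bounds, the members' medians were 5.72 and 7.36. In bulk libraries, fewer cells of a type and less RNA per cell cannot be told apart.

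The forkhead pair, targets of hedgehog signalling in the gut mesenchyme, stood far above epithelium. Foxf1 had 301, 417 and 281 CPM in Id2KO mesenchyme and 0.629, 3.18 and 0.249 CPM in Id2KO EpCAM+ cells. In wt mesenchyme it had 229, 239 and 184 CPM, against 3.40, 0.940 and 4.36 CPM in wt EpCAM+ cells. No mesenchyme library overlapped with an epithelial one, and the log2 fold changes were 7.98 ± 0.84 (SE, adjusted p = 4.1e-05, edgeR) in Id2KO embryos and 6.65 ± 0.79 (adjusted p = 0.00011) in wt embryos. Foxf2 had 82.1, 91.6 and 93.3 CPM in Id2KO mesenchyme against 0.114, 0.223 and 0.0553 CPM in Id2KO EpCAM+ cells. Its wt mesenchyme libraries had 65.9, 61.0 and 52.1 CPM, and its wt EpCAM+ libraries had 0.662, 0.188 and 1.78 CPM. The groups did not overlap, with log2 fold changes of 9.40 ± 0.69 (adjusted p = 3.1e-07, edgeR) in Id2KO and 6.48 ± 0.58 (adjusted p = 2.2e-06) in wt embryos.

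Among the bHLH members, Tcf21, needed for the mesenchyme of several organs, was far higher in mesenchyme than in epithelium. It had 423, 502 and 576 CPM in Id2KO mesenchyme against 7.03, 3.57 and 6.66 CPM in Id2KO EpCAM+ cells. In wt mesenchyme it had 267, 282 and 273 CPM, against 4.52, 4.48 and 3.07 CPM in wt EpCAM+ cells. The log2 fold change was 6.45 ± 0.29 in Id2KO embryos and 6.52 ± 0.30 in wt embryos (SE, adjusted p = 2.3e-09 in each, edgeR), and the groups lay far apart. Twist2, a repressor of differentiation in mesenchymal precursors, had 65.4, 66.0 and 86.8 CPM in Id2KO mesenchyme against 0.829, 0.0558 and 0.0276 CPM in Id2KO EpCAM+ cells. In wt mesenchyme it had 45.5, 53.4 and 57.0 CPM, against 0.662, 0.157 and 0.761 CPM in wt EpCAM+ cells. Its log2 fold changes were 7.91 ± 0.85 (adjusted p = 1.8e-05, edgeR) and 7.02 ± 0.81 (adjusted p = 3.8e-05) for Id2KO and wt embryos, with no overlap. Twist2 shares 1477 exon bases with an antisense gene model, and whether counting used strand is not given in the sources used here.

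Twist1, known for its part in the mesoderm and in epithelial-mesenchymal transition, was lower than its relative Twist2 per kilobase in both genotypes. It had 15.7, 16.8 and 10.8 CPM in Id2KO mesenchyme, and 1 count in all in Id2KO EpCAM+ cells, a ratio of 1553 with an exact 95% counting interval of 278 to 61371. In wt mesenchyme it had 9.15, 7.88 and 6.87 CPM, against 1.18, 0 and 0.234 CPM in wt EpCAM+ cells (log2 fold change 4.52 ± 1.02, adjusted p = 0.0056, edgeR). All mesenchyme libraries stood above all epithelial ones.

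Of the homeobox members, Nkx2-3, which patterns the gut wall and its vessels, stood apart most clearly. It had 53.5, 125 and 88.2 CPM in Id2KO mesenchyme against 1.43, 0.641 and 0.304 CPM in Id2KO EpCAM+ cells (log2 fold change 6.81 ± 0.53, adjusted p = 5.1e-07, edgeR). It had 52.1, 52.5 and 57.4 CPM in wt mesenchyme against 1.09, 0.940 and 0.439 CPM in wt EpCAM+ cells (6.46 ± 0.52, adjusted p = 8e-07). The mesenchyme libraries did not overlap with the epithelial libraries in either genotype.

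Nkx3-2, which in chick and mouse acts in the mesenchyme of the stomach and spleen region and in cartilage, was low. It had 4.79, 6.01 and 0.413 CPM in Id2KO mesenchyme and 0 counts in Id2KO EpCAM+ cells, which made it at least 44.4-fold higher, against a floor of 3 counts per library. In wt mesenchyme it had 0.588, 1.23 and 1.42 CPM, against 0.0288, 0 and 0.117 CPM in wt EpCAM+ cells (log2 fold change 4.75 ± 1.52, adjusted p = 0.044, edgeR). That wt call was not held when any of 5 of the 6 libraries was left out, with adjusted p of 0.06 to 0.13. Barx1, a homeobox gene of the stomach mesenchyme, was near the limit of detection. It had 24, 0 and 0 counts in Id2KO mesenchyme against 0, 21 and 31 counts in Id2KO EpCAM+ cells, and the groups overlapped (log2 fold change -0.84 ± 2.32, adjusted p = 0.84, edgeR). It had 28, 0 and 6 counts in wt mesenchyme and 0 counts in wt EpCAM+ cells, at least 3.55-fold higher over the floor (adjusted p = 0.15). By these counts Barx1 did not set the layers apart, and it stands in the set by name alone.

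Wt1, the mesothelial regulator, was low in mesenchyme and lower still in epithelium. It had 12.5, 16.9 and 26.1 CPM in Id2KO mesenchyme, and 2 counts in all in Id2KO EpCAM+ cells, a ratio of 993 with an exact 95% counting interval of 275 to 8209. In wt mesenchyme it had 7.50, 12.4 and 6.95 CPM, against 0.720, 2.85 and 0.936 CPM in wt EpCAM+ cells (log2 fold change 3.01 ± 0.68, adjusted p = 0.0053, edgeR). The mesenchyme libraries were all higher in both genotypes. Osr1 had 1.83, 9.99 and 8.88 CPM in Id2KO mesenchyme against 0, 0.279 and 0 CPM in Id2KO EpCAM+ cells (6.20 ± 1.54, adjusted p = 0.0096, edgeR). It had 4.51, 8.88 and 5.56 CPM in wt mesenchyme against 0.605, 0 and 0.205 CPM in wt EpCAM+ cells (4.97 ± 1.43, adjusted p = 0.023), again with no overlap. The wt Osr1 call was lost without wt EpCAM+ replicate 2 or 3 or wt mesenchyme replicate 2, with adjusted p of 0.056, 0.084 and 0.062.

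**Figure D2:**
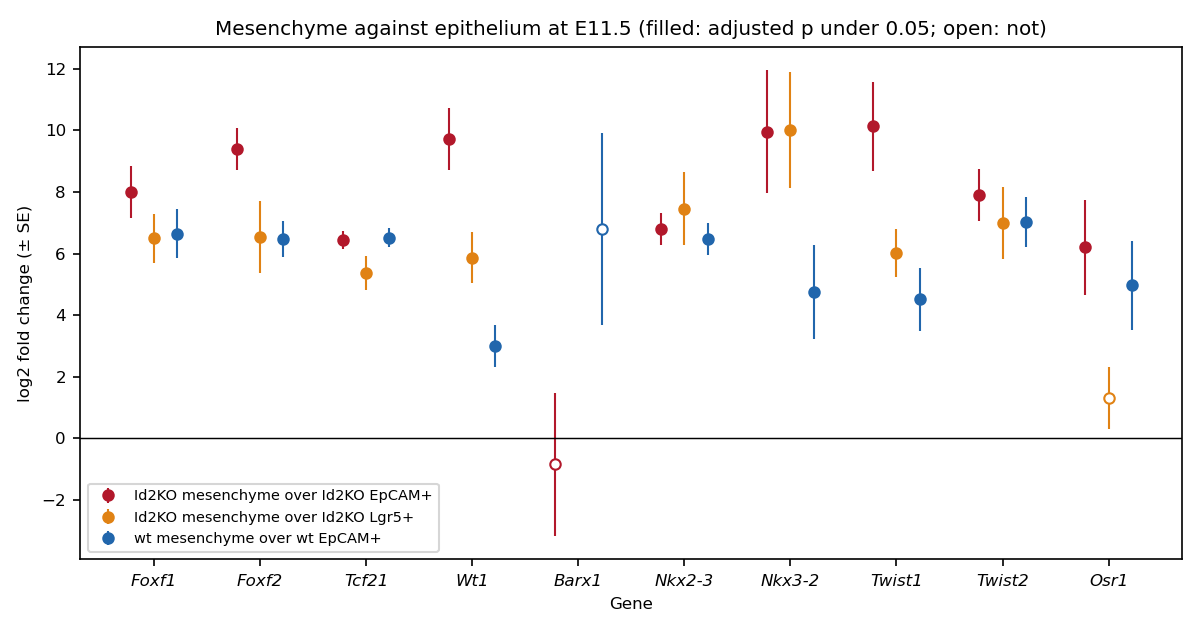
Log2 fold change ± SE of mesenchyme over epithelium at E11.5 for each gene: Id2KO mesenchyme over Id2KO EpCAM+ (red), Id2KO mesenchyme over Id2KO Lgr5+ (orange) and wt mesenchyme over wt EpCAM+ (blue), with filled points at an adjusted p under 0.05. Called values run from 3.01 for Wt1 in wt embryos upward. Barx1 is open over EpCAM+ cells and has no point over Lgr5+ cells, where it was not tested. Osr1 is open over Lgr5+ cells. The Nkx3-2 values in Id2KO embryos and the Barx1 value in wt embryos, fitted against 0 counts, depend on the prior count.

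Other mesenchymal regulators behaved less uniformly, as counted over a list of 27 further transcription factors. In wt embryos 11 of the 19 tested were called higher in mesenchyme and 3 lower, and in Id2KO embryos 10 were called higher and 3 lower. Snai2, a zinc finger repressor of epithelial genes, was higher in mesenchyme by 3.93 ± 0.31 in Id2KO and 6.31 ± 0.35 in wt embryos on the log2 scale (SE, adjusted p = 7e-07 and 2.1e-08, edgeR). Hand2, a bHLH factor of the gut mesenchyme, was higher by 8.53 in Id2KO and 6.47 in wt embryos. Msx2, a homeobox gene, was lower in mesenchyme, with log2 fold changes of -7.93 in Id2KO and -8.30 in wt embryos. The hedgehog pathway list had 12 of 14 genes called higher in mesenchyme and 2 lower in Id2KO embryos, and 8 of 14 higher and 2 lower in wt embryos. The 2 lower genes were the ligands Shh and Ihh, with log2 fold changes of -8.41 and -7.93 in Id2KO and -10.25 and -8.41 in wt embryos. Bmp4, a hedgehog-responsive ligand gene, was higher in mesenchyme by 6.25 in Id2KO and 5.75 in wt embryos.

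The genes most like the members over the 15 group means, by Pearson's r of log2(CPM + 1) among genes of at least 10 CPM, were other genes of the mesenchyme libraries. Foxf1 was closest to Synpo2 (r = 0.998), Nrg1 and Zeb1. Foxf2 was closest to Pdlim3 (r = 0.999), Hoxc8 and Nell2, and Tcf21 to Peg10 (r = 0.995), Dlc1 and Mmp2. Wt1 was closest to 2700069I18Rik (r = 0.996), Tll1 and Ctnna3, and Twist1 to Hoxc9 (r = 0.999), Tll1 and Cd109. Nkx2-3 was closest to Hlx (r = 0.998), Twist2 and Prkg1, and Twist2 to Hoxc6 (r = 0.999), Adamts18 and Fendrr, the noncoding RNA gene next to Foxf1. Osr1 was closest to Islr (r = 0.991), Fbn2 and Prickle2. These values rest on 2 high groups and 13 low ones, which share cell source and depth, and they describe likeness alone.

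Between the genotypes, 0 of the 9 members tested were called in mesenchyme, where 0.881% of 13734 genes were called in either direction. At an unadjusted p under 0.05 there was 1 member and 979 genes, and DESeq2's Wald test also called 0 members. Tcf21 was nearest, with 423, 502 and 576 CPM in Id2KO mesenchyme against 267, 282 and 273 CPM in wt mesenchyme. Every Id2KO library was higher, and the log2 fold change after TMM scaling was 0.50 ± 0.17 (SE, adjusted p = 0.4, edgeR). For Foxf1 it was 0.23 ± 0.19 (adjusted p = 0.93) and for Foxf2 0.20 ± 0.19 (adjusted p = 0.94). Twist1, at 0.48 ± 0.35, and Twist2, at 0.12 ± 0.20, also missed the threshold (adjusted p = 0.9 and 0.97). Nkx2-3 differed by 0.33 ± 0.25, Wt1 by 0.67 ± 0.39, Nkx3-2 by 1.41 ± 1.01 and Osr1 by -0.27 ± 0.60, with adjusted p of 0.86 or more. The values were positive in 8 of the 9 members, with a median of 0.33 against 0.01 for all genes tested.

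In plain CPM more of the members stood apart, and this depended on red cell genes. Every Id2KO library was above every wt library for 6 of the 10 members, namely Foxf1, Foxf2, Tcf21, Wt1, Twist1 and Twist2, where 26% of genes were so placed. When CPM was taken over gene counts without the red cell list, 1 member remained, Tcf21, and 7.09% of genes were so placed. The median log2 ratio of Id2KO over wt was 0.38 over all genes in plain CPM and 0.04 without the red cell list, and for the members it was 0.67 and 0.32. The lists gave no call beyond Id2 and red cell genes: 0 of 17 other mesenchyme transcription factors, 0 of 12 hedgehog genes and 0 of 9 mesenchyme matrix genes passed the test, and 5 of 5 red cell genes were called lower in Id2KO mesenchyme.

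**Figure D3:**
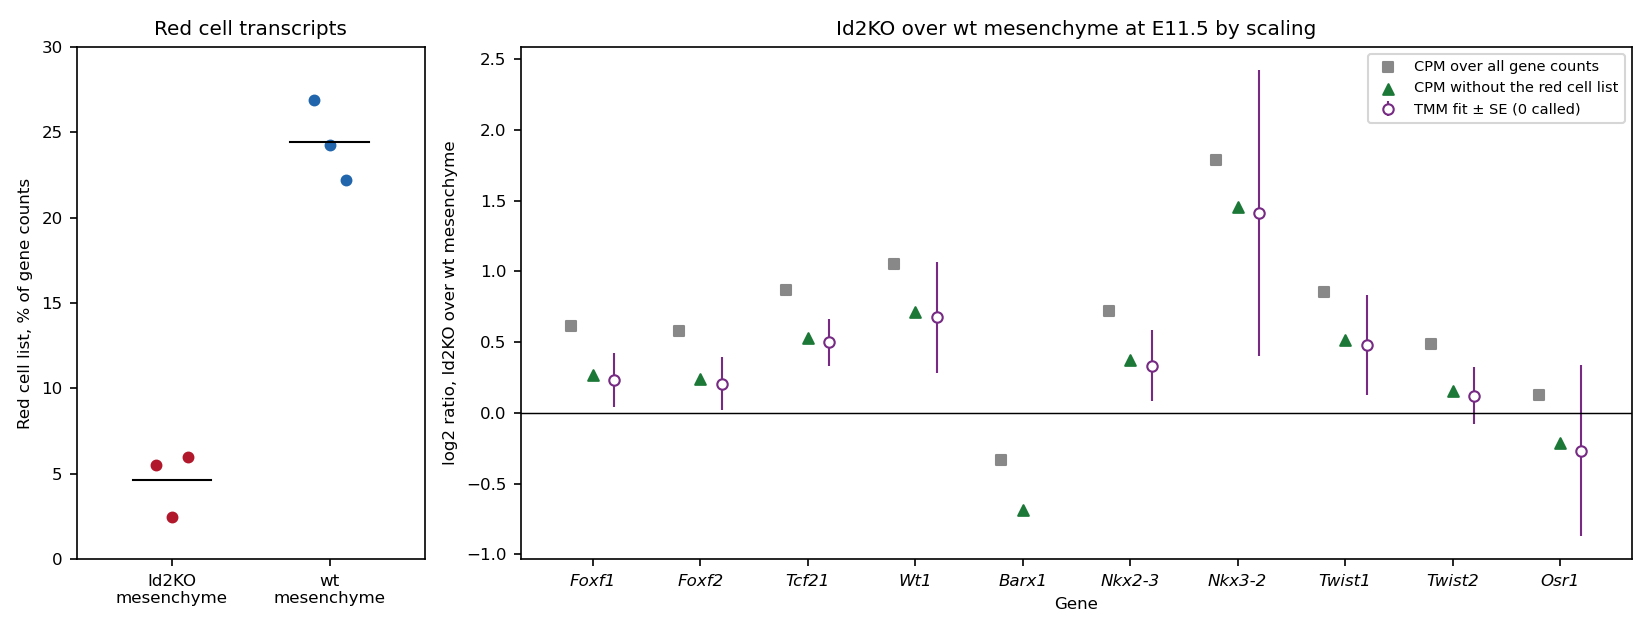
Left, percent of gene counts taken by the red cell list in each mesenchyme library, 2.47 to 5.96 in Id2KO and 22.2 to 26.9 in wt. Right, log2 ratio of Id2KO over wt mesenchyme for each gene in plain CPM, in CPM without the red cell list and in the TMM-scaled fit (± SE), in which 0 members were called.

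In the E11.5 epithelium the members were at low counts, and 0 of the 7 tested were called between Id2KO and wt EpCAM+ cells by edgeR, where 1.66% of 15153 genes were called. At an unadjusted p under 0.05 there was 1 member and 1947 genes, and DESeq2 called 1 member. That member was Wt1, with 0, 2 and 0 counts in Id2KO EpCAM+ libraries against 25, 91 and 32 counts in wt EpCAM+ libraries. The groups did not overlap, which held for 1 of the 10 members, where 11% of genes tested were lower in every Id2KO library. Wt was higher by a ratio of 78.5, with an exact 95% counting interval of 21.4 to 655. The log2 fold change of Id2KO over wt was -6.07 ± 1.82 (adjusted p = 0.15 by edgeR and 0.012 by DESeq2). Twist1 was too low for the test, with 0, 1 and 0 counts in Id2KO against 41, 0 and 8 counts in wt EpCAM+ libraries, and the groups overlapped at 0. The other 6 members tested ranged from -2.71 ± 1.72 for Foxf2 to 0.57 ± 0.53 for Tcf21.

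The Id2KO effect on Wt1 differed between the layers, by the interaction of genotype and layer. This was the only one of 10 members called, where 0.593% of 15680 genes were called, and its log2 value of 6.72 ± 1.13 (SE, adjusted p = 0.012, edgeR) is the Id2KO effect in mesenchyme minus that in EpCAM+ cells. Over the alternatives, including each library left out, the value ran from 5.87 to 9.25 and the adjusted p from 4.8e-05 to 0.044. Without Id2KO EpCAM+ replicate 2, that group had 0 counts of Wt1, so the value there depends on the prior count. Foxf2, at 2.92 ± 0.81 (adjusted p = 0.2), and Twist1, at 5.61 ± 1.63 (adjusted p = 0.23), were called only by DESeq2 and without wt EpCAM+ replicate 2.

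Marker lists of other cells gave mixed values beside this Wt1 result. The matrix genes Dcn and Col3a1, 2 of the 9 on the mesenchyme matrix list, had interaction values of 3.90 and 2.55 (adjusted p = 0.0098 and 0.027, edgeR). Called were 0 of 5 mesothelial, 0 of 5 endothelial, 0 of 6 macrophage, 0 of 7 smooth muscle and 0 of 6 neural crest genes. Of 5 red cell genes, 4 were called, with negative values. Macrophage genes summed to 619, 687 and 4.62 CPM in Id2KO EpCAM+ cells and to 585, 136 and 62.8 CPM in wt EpCAM+ cells. Without Vim, the matrix list summed to 12.3, 12.5 and 4.202 CPM in Id2KO EpCAM+ cells against 38.8, 20.4 and 39.4 CPM in wt EpCAM+ cells, and to 1763 to 2209 CPM in Id2KO mesenchyme against 1270 to 1950 CPM in wt mesenchyme. The mesothelial gene Upk3b had 0.0286 to 1.99 CPM in Id2KO EpCAM+ cells and 0.468 to 3.14 CPM in wt EpCAM+ cells. The whole mesothelial list summed to 42.4 to 46.4 CPM in Id2KO EpCAM+ cells, mostly from Gpm6a and Msln, and to 11.9 to 21.0 CPM in wt EpCAM+ cells. Endothelial genes summed to 2.46, 2.40 and 9.73 CPM in Id2KO EpCAM+ cells and to 4.03, 59.0 and 3.48 CPM in wt EpCAM+ cells, where replicate 2 was also the highest for Wt1. The Wt1 value was 5.87 without that library (adjusted p = 0.026, edgeR). The part of the other markers in the Wt1 result was not tested.

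Levels in epithelium were also set as a share of the mean CPM in mesenchyme of the same genotype. The shares use plain CPM. Red cell genes took 22.2 to 26.9% of the counts in wt mesenchyme and 2.47 to 5.96% in Id2KO mesenchyme, which raises the wt shares more. Foxf1 was at 0.406% in Id2KO EpCAM+ and 1.33% in wt EpCAM+ cells, Tcf21 at 1.15% and 1.47%, and Nkx2-3 at 0.892% and 1.53%. Foxf2 was at 0.147% in Id2KO and 1.47% in wt EpCAM+ cells, and Twist2 at 0.418% and 1.01%. Wt1 was at 0.1004% in Id2KO and 16.8% in wt EpCAM+ cells, Twist1 at 0.0645% and 5.92%, Nkx3-2 at 0 and 4.49%, and Osr1 at 1.35% and 4.27%. Barx1, with few counts in either layer, ran the other way, at 191% in Id2KO and 0 in wt EpCAM+ cells. The Id2KO shares of Wt1, Twist1 and Osr1 rest on 2, 1 and 10 counts, in 1 library each. The wt shares of Nkx3-2 and Twist1 rest on 5 and 49 counts, in 2 libraries each. Means of Wt1 and Twist1 in Id2KO and of Nkx3-2 in wt EpCAM+ cells lie under the worth of 3 counts. The wt share of Wt1 leans on replicate 2, without which its mean in wt EpCAM+ cells was 0.828 CPM in place of 1.502 CPM. On the same scale the matrix gene Col1a1 was at 0.169% in Id2KO EpCAM+ and 1.47% in wt EpCAM+ cells.

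**Figure D4:**
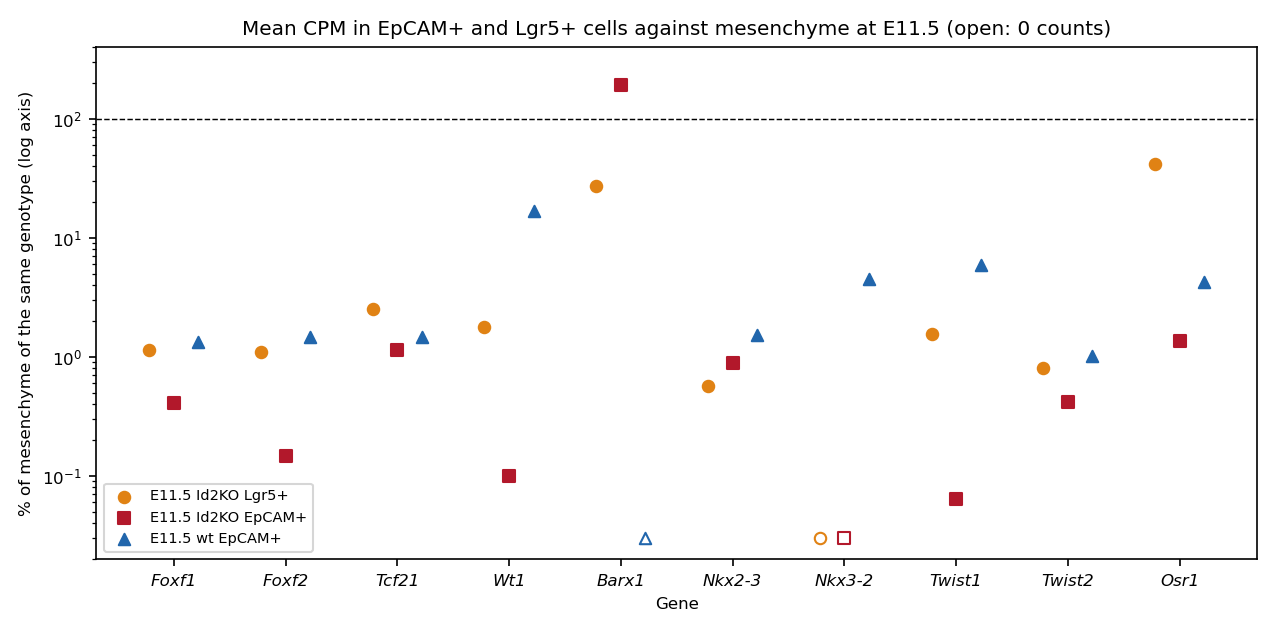
Mean CPM in E11.5 epithelium as a percent of the mean in mesenchyme of the same genotype, on a log axis, for Id2KO Lgr5+ (circles), Id2KO EpCAM+ (squares) and wt EpCAM+ cells (triangles). Open symbols stand for 0 counts and the dashed line for 100%. Osr1 in Lgr5+ cells lies at 41.4% and Wt1 in wt EpCAM+ cells at 16.8%, each raised by replicate 2 of its group (mean Osr1 0.778 CPM without it in place of 2.85 CPM, mean Wt1 0.828 CPM in place of 1.502 CPM), while Tcf21 lies at 1.15 to 2.53% in all 3 groups.

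Among Id2KO Lgr5+ cells, 1 of the 3 libraries carried most of the members' signal. Foxf1 had 1.51, 8.76 and 1.10 CPM in the Lgr5+ libraries against 0.629, 3.18 and 0.249 CPM in Id2KO EpCAM+ cells. Tcf21 had 6.21, 24.3 and 7.35 CPM in Lgr5+ cells against 7.03, 3.57 and 6.66 CPM in Id2KO EpCAM+ cells, and Osr1 had 0.697, 7.00 and 0.860 CPM against 0, 0.279 and 0 CPM. In replicate 2 of the Lgr5+ group, Foxf1 was 6.71 times, Tcf21 3.59 times and Osr1 9.0 times the mean of replicates 1 and 3, but Wt1 was 1.08 times that mean. Foxf2 had 2.84 CPM and Twist2 1.72 CPM in replicate 2, against means of 0.0451 and 0.0148 CPM in replicates 1 and 3. Those 2 means lie under the worth of 3 counts, 0.0890 to 0.0909 CPM, so no ratio is given. Nkx2-3 was counted in replicate 2 alone, at 1.52 CPM. The mesenchyme matrix list without Vim stood with it, at 25.4, 70.8 and 21.3 CPM in the 3 Lgr5+ libraries, and its part was not tested.

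Tested against Id2KO EpCAM+ cells, 0 of the 7 members were called in Id2KO Lgr5+ cells by edgeR or DESeq2, where 3.14% of 15153 genes were called. This fit took no account of pairs by replicate number. At an unadjusted p under 0.05 there were 2 members and 2258 genes. Osr1, and Twist1, which was too low for the test, were higher in every Lgr5+ library, where 11.1% of genes tested were so placed. Lower in every Lgr5+ library were 0 members. The log2 fold change of Osr1 was 4.90 ± 1.96 (SE, adjusted p = 0.26, edgeR), and 3.03 without Lgr5+ replicate 2. Wt1 differed by 3.89 ± 1.68 (adjusted p = 0.3) and Tcf21 by 1.09 ± 0.53 (adjusted p = 0.38). Without Lgr5+ replicate 2, 262 genes were called in place of 476. The value of Foxf1 was then -0.05 in place of 1.49, that of Foxf2 -1.48 in place of 2.85 and that of Twist2 -4.12 in place of 0.88. Those of Foxf2 and Twist2 were fitted on Lgr5+ means of 0.0451 and 0.0148 CPM, under the worth of 3 counts. Other mesenchymal regulators did pass this test: 5 of the 18 on that list were called higher and 0 lower in Lgr5+ cells. They included Osr2, the relative of Osr1, by 2.90 ± 0.28 (adjusted p = 0.00047, edgeR), Snai2 by 2.63 ± 0.33 (adjusted p = 0.0016) and Isl1 by 3.34 ± 0.52 (adjusted p = 0.0051). Msx2, itself lower in mesenchyme than in EpCAM+ cells, was also higher in Lgr5+ cells, by 2.25 ± 0.39 (adjusted p = 0.0089). Vim, an intermediate filament gene often used as a mesenchyme marker, was higher by 2.93 ± 0.34 (adjusted p = 0.0011).

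Against wt EpCAM+ cells, 0 of 7 members were called in Id2KO Lgr5+ cells by edgeR, where 3.04% of genes were called. At an unadjusted p under 0.05 there was 1 member and 2535 genes. This was Tcf21, with a log2 fold change of 1.66 ± 0.54 (adjusted p = 0.14, edgeR), and DESeq2 called it (adjusted p = 0.044). Without Lgr5+ replicate 2 its value was 0.76. Tcf21 and Osr1 were higher in every Lgr5+ library, where 12.8% of genes tested were so placed. Wt1 was lower in every Lgr5+ library, where 14% were so placed. Of the 18 other mesenchymal regulators tested here, 2 were called higher and 1 lower. Their full list summed to 531 to 657 CPM in Id2KO Lgr5+, 215 to 235 CPM in Id2KO EpCAM+ and 539 to 551 CPM in wt EpCAM+ libraries. The comparison of Id2KO Lgr5+ with wt EpCAM+ cells differs in genotype and in sort together, and the 2 cannot be told apart.

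Set against Id2KO Lgr5+ cells, Id2KO mesenchyme was higher for 8 of the 9 members tested, where 10.5% of 14343 genes were called higher. The log2 fold change was 6.50 ± 0.79 for Foxf1 (SE, adjusted p = 0.00053, edgeR) and 5.36 ± 0.55 for Tcf21 (adjusted p = 0.00019). It was 6.55 for Foxf2, 7.46 for Nkx2-3, 6.99 for Twist2, 6.03 for Twist1 and 5.87 for Wt1, all called. Nkx3-2 was at least 42.2-fold higher in mesenchyme, with 0 counts in Lgr5+ cells. Osr1 was the member not called, with mesenchyme at 1.83, 9.99 and 8.88 CPM and Lgr5+ cells at 0.697, 7.00 and 0.860 CPM. Its groups overlapped through Lgr5+ replicate 2, and its log2 fold change was 1.31 ± 0.99 (adjusted p = 0.4), and 3.18 without that library. The members' median was 6.50, or 6.03 with Nkx3-2 at its bound, against 0.01 for all genes tested. This comparison shares the Id2KO mesenchyme libraries with the one against EpCAM+ cells.

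By E13.5 the epithelium held traces of Foxf1 and Tcf21 and little else. Foxf1 had 0.875 to 1.32 CPM in the 4 Lgr5+ libraries and 0.769 to 1.25 CPM in the 4 EpCAM+ libraries. Tcf21 had 1.04 to 2.14 CPM in Lgr5+ and 0.224 to 1.85 CPM in EpCAM+ libraries, and the groups overlapped for both genes. The log2 fold changes of Lgr5+ over EpCAM+ cells were 0.16 ± 0.78 for Foxf1 and 0.67 ± 0.82 for Tcf21 (adjusted p = 0.99 and 0.92, edgeR). Thus 0 of the 2 members tested were called, where 1.75% of 13355 genes were called. At an unadjusted p under 0.05 there were 0 members and 1300 genes, and DESeq2 called 0 members. Osr1 reached 0.801 CPM in 1 Lgr5+ library and 1.34 CPM in 1 EpCAM+ library. The remaining members stayed at or under 0.590 CPM in every E13.5 library, and Barx1 was at 0 counts in all 8.

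Between the stages, 1 of the 6 members tested was called lower in E13.5 EpCAM+ cells than in wt EpCAM+ cells of E11.5, where 21.1% of 14467 genes were called lower. This was Wt1, with 0 counts in all 4 E13.5 libraries against 25, 91 and 32 counts in the 3 E11.5 libraries, at least 16.4-fold lower (adjusted p = 0.0044, edgeR). Of the 15 other mesenchyme transcription factors tested, 8 were called lower and 2 higher. Marker lists of other cells differed in direction in this comparison. Called lower were 6 of 6 macrophage, 3 of 4 red cell and 1 of 9 mesenchyme matrix genes. Called higher were 2 of 6 smooth muscle and 1 of 5 neural crest genes, with 0 lower. Macrophage genes summed to 4.57 to 9.86 CPM in E13.5 EpCAM+ libraries and to 585, 136 and 62.8 CPM in E11.5 wt EpCAM+ libraries. Endothelial genes summed to 0.215 to 2.60 CPM at E13.5 and to 4.03, 59.0 and 3.48 CPM at E11.5, highest in the library with 91 counts of Wt1. Without that library Wt1 was still called (adjusted p = 0.031, edgeR). Of the mesothelial genes tested, 1 of 4 was called higher and 0 lower. The part of these genes of other cells was not tested. Tcf21 differed by -1.74 ± 0.78 (adjusted p = 0.097), Foxf1 by -1.36 (adjusted p = 0.2) and Osr1 by 0.94. Twist2 fell below the filter on low counts, with 0 counts at E13.5 against 23, 5 and 26 counts at E11.5, at least 5.75-fold lower. Stage and the pooling of embryos cannot be told apart here.

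Adult stem cells held the fewest counts. In adult Lgr5+ ISC, Foxf1 had 0 to 0.878 CPM, against 0.875 to 1.32 CPM in E13.5 Lgr5+ cells (log2 fold change -1.77 ± 1.21, adjusted p = 0.29, edgeR). Tcf21 had 2 counts in all over the 4 ISC libraries against 262 counts over the 4 E13.5 Lgr5+ libraries. The groups did not overlap, E13.5 was higher by a ratio of 101 with an exact 95% counting interval of 27.8 to 841, and the adjusted p was 0.0032. This made 1 of the 2 members tested lower in adults, where 17.3% of 13144 genes were called lower. Wt1 had 12 counts in 2 ISC libraries, at most 0.391 CPM, and each of the other 7 members had 5 counts or fewer.

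In the 14 libraries of adult segments, 8 of the 10 members were at 0 counts throughout. Foxf1 had 1 count in each of 2 libraries, and Barx1 had 4, 5 and 8 counts in 3 libraries, from wt anterior, Id2KO middle and Id2KO posterior segments by their labels. A count of 0 allows a level of up to 0.147 to 0.221 CPM in these libraries, the worth of 3 counts. None of the members passed the filter for the comparison of adult Id2KO with wt segments, where 7.75% of 13436 genes were called. A difference in these genes between the adult genotypes was not detectable at this depth, and with Id2 against the labels in the anterior and posterior segments, neither direction would be given to a genotype.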

How the data were processed

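The deposited files hold raw read counts per gene symbol for 41 mouse libraries, which the authors made and which were used as they stand. The labels' protocols give poly(A) RNA, SMARTer cDNA with 15 amplification cycles, a NuGEN Ovation Ultralow library and single-end reads of 50 bp. Per the submitters' processing notes, the tools were HTSeq 0.6.1p1, STAR 2.3.1z13, DESeq2 1.6.3, SAMtools 1.2 and bcl2fastq 1.8.4, and the build was mm9. Their roles, the annotation and the strand setting are not given in the sources used here, and amplified reads without molecular identifiers are not independent molecules.

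From these counts, CPM were computed over gene counts without the 5 HTSeq category totals. Tests were quasi-likelihood F tests in edgeR 4.0.16 with limma 3.58.1 and R 4.3.3, after filterByExpr and TMM scaling, with robust dispersion. The E11.5 mesenchyme and EpCAM+ groups shared a fit for comparisons between layers and for the interaction, the E11.5 epithelial groups shared another, and so did the adult segments. Other comparisons used their own groups. Alternatives were RLE size factors, DESeq2 1.42.0, a block for the replicate number, no filter, fits on just the compared groups, removal of a red cell gene list, and each library left out. CPM without the red cell list and the matrix list without Vim were added after the data were seen.

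The 10 members and all gene lists were chosen with earlier results of these data known. Named genes were all members and Id2, up to 4 genes of each list by smallest p, and the 3 most alike genes per member. Dcn, Upk3b, Gpm6a, Msln, Xist, Ddx3y and Col1a1 were named from levels seen in the data. Folds against 0 counts use a floor of 3 counts per library, and floors and counting intervals cover counting error only. Among 40 replicate pairs 0 were identical, with chi-square per degree of freedom of 22.9 to 230. The labels do not always say that replicates came from separate animals, so p-values measure the spread between these libraries. At E11.5, Lgr5+ and EpCAM+ libraries of Id2KO embryos with the same number counted as pairs, since their deviations from group means correlated at 0.108 to 0.212 in every pair, over the 0.1 required. The main fit of that comparison still left the pairs out, and they entered only in the alternative with a block for the replicate number. The edgeR fit was tested on simulated counts for Id2KO against wt mesenchyme and for E13.5 Lgr5+ against EpCAM+ cells only. DESeq2, the interaction and the fits shared by several groups were not tested in that way. Promoters came from RefSeq (GRCm38.p6), exon lengths from GENCODE M21.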

Additional observations from a re-analysis of the deposited data

Results flagged for a closer look

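In groups of 4 libraries, 9 of the 22 sets of a member's values with any spread had 1 library standing apart from the other 3. The rule flags about 1 in 20 sets of normally distributed values. These values are mostly counts near 0, so no excess can be read from that rate. The library apart held 1 or 2 counts in 6 of the 9 sets, and in the others 41 counts of Osr1, 16 of Twist1 and 11 of Wt1. In E13.5 Lgr5+ cells the library apart had 0.0580 CPM of Wt1, 0.0195 of Nkx3-2, 0.0644 of Twist2 and 0.801 of Osr1. In E13.5 EpCAM+ cells it had 0.429 CPM of Twist1. In adult Lgr5+ ISC it had 0.0643 CPM of Tcf21, 0.391 of Wt1, 0.0355 of Twist1 and 0.0710 of Twist2. A set of values that is 0 in 3 libraries stands apart at any count in the remaining one.

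The Id2KO effect on Wt1 differed between mesenchyme and EpCAM+ cells at E11.5, by 6.72 ± 1.13 on the log2 scale (interaction, adjusted p = 0.012, edgeR). Within mesenchyme the effect was 0.67 ± 0.39 (adjusted p = 0.86), and within EpCAM+ cells -6.07 ± 1.82 (adjusted p = 0.15). Every Id2KO EpCAM+ library, at 0 to 0.0558 CPM, was below every wt EpCAM+ library, at 0.720 to 2.85 CPM. Of all genes tested between these EpCAM+ groups, 11% were so placed.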

How the results depend on the processing

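DESeq2 raised the counts of genes called, against edgeR, to 293 in place of 121 for Id2KO against wt mesenchyme, 727 in place of 251 for Id2KO against wt EpCAM+ cells, 315 in place of 93 for the interaction, 1146 in place of 476 for Id2KO Lgr5+ against Id2KO EpCAM+ cells, 1243 in place of 461 for Id2KO Lgr5+ against wt EpCAM+ cells, 466 in place of 234 at E13.5 and 1651 in place of 1041 in adult segments. It called 1 member (Wt1) in place of 0 between the EpCAM+ genotypes, 3 in place of 1 in the interaction and 1 (Tcf21) in place of 0 between Lgr5+ and wt EpCAM+ cells. The compared groups alone gave 119 genes between the EpCAM+ genotypes and 972 between Lgr5+ and wt EpCAM+ cells. With no filter on low counts, 1760 genes were called in adult segments, and 2 members (Wt1 and Twist2) in place of 1 between E13.5 and E11.5 EpCAM+ cells. The members' mean sum in wt mesenchyme was 848 CPM after TMM scaling in place of 682. The number of members with every Id2KO mesenchyme library above wt was 1 without the red cell list in place of 6. For Nkx2-3 between the EpCAM+ genotypes, at 0.00492, the sign turned to -0.0103 with RLE factors, -0.00995 with DESeq2 and -0.00816 with the compared groups alone. The cause of these shifts was not tested, beyond the smaller or larger sets of genes and libraries that the settings themselves use.

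With the replicate number as a block, 7 members in place of 9 were called between wt mesenchyme and wt EpCAM+ cells, where Nkx3-2 and Osr1 missed the threshold (adjusted p = 0.08 and 0.053), and 546 genes in place of 476 between the paired Id2KO Lgr5+ and EpCAM+ libraries. The number of members called was the same with the block in the other comparisons. The block turned Nkx2-3 between the EpCAM+ genotypes to -0.0249, and between Lgr5+ and wt EpCAM+ cells turned Foxf1 to -0.68, Foxf2 to -1.85 and Twist2 to -0.98, in place of 0.39, 0.14 and 0.15. None of these was called. Outside the Id2KO Lgr5+ and EpCAM+ libraries the correlations did not all pass 0.1, so numbers were not taken as pairs. For Id2KO mesenchyme, though, same-numbered libraries correlated at 0.0408 to 0.14 with EpCAM+ and 0.0503 to 0.13 with Lgr5+ cells, above every other pairing (at most 0.0365 and 0.000444), and the same one of Xist and Ddx3y was high, which is a hint from the data and not from the labels.

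With each library left out in turn, the members called ranged from 1 to 3 in the interaction and from 1 to 2 between E13.5 and E11.5 EpCAM+ cells. Genes called ranged from 64 to 127 between mesenchyme genotypes, from 77 to 301 between EpCAM+ genotypes, from 68 to 142 in the interaction, from 215 to 554 between Id2KO Lgr5+ and Id2KO EpCAM+ cells, from 190 to 303 between Lgr5+ and wt EpCAM+ cells, from 2207 to 3476 between Id2KO mesenchyme and Lgr5+ cells, and from 671 to 1010 in adult segments. Counts moved by over 1.5 times without wt mesenchyme replicate 1 (64) or 2 (74) in the first of these. They did so for the EpCAM+ genotypes without Id2KO replicate 3 (163) or wt replicate 1 (117), 2 (77) or 3 (99), for the interaction without Id2KO EpCAM+ replicate 2 (142), and for Lgr5+ against Id2KO EpCAM+ cells without Lgr5+ replicate 1 (215), 2 (262) or 3 (257). They also did for Lgr5+ against wt EpCAM+ cells without any 1 library, for mesenchyme against Lgr5+ cells without Lgr5+ replicate 3 (2207), and for adult segments without Id2KO middle replicate 2 (673), anterior replicate 1 (683) or posterior replicate 1 (671). Uncalled members changed sign, in log2 fold change. Between Lgr5+ and Id2KO EpCAM+ cells Foxf1 ranged from -0.050 to 3.04, Foxf2 from -1.48 to 3.42, Nkx2-3 from -7.80 to 0.10 and Twist2 from -4.12 to 3.69. Between Lgr5+ and wt EpCAM+ cells Foxf1 ranged from -1.15 to 0.85, Foxf2 from -4.20 to 1.24 and Twist2 from -4.84 to 0.72. Without Lgr5+ replicate 2, the Lgr5+ means were 0 CPM for Nkx2-3 and 0.0148 CPM for Twist2, so those fitted values depend on the prior count. Between mesenchyme genotypes Osr1 ranged from -0.58 to 0.18 and Twist2 from -0.030 to 0.23, and between EpCAM+ genotypes Nkx2-3 ranged from -0.77 to 0.39. In the interaction Nkx2-3 ranged from -0.039 to 1.12, Osr1 from -0.024 to 5.81 and Tcf21 from -0.37 to 0.12. All other values of single members kept their sign under every setting run. Depth limits the members outside mesenchyme, where 3 counts are worth 0.0770 to 0.0946 CPM at E11.5.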

Other observations

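Genes of the Id family and their E protein partners, which act on the bHLH members, were followed as a list of 7. In Id2KO EpCAM+ cells, against wt EpCAM+ cells, Id3 was higher by 2.25 ± 0.18 and Id1 by 1.45 ± 0.22 on the log2 scale (SE, adjusted p = 6.2e-05 and 0.0079, edgeR), and Id2 was the one gene of the 7 called lower. In Id2KO mesenchyme, against wt mesenchyme, only Id2 of the 7 was called, and the difference of Id3 between the layers was itself called (-2.25 ± 0.25, adjusted p = 0.00082). In the other mesenchyme transcription factors, Snai2 showed a difference of the same sign between layers (-2.37 ± 0.41, adjusted p = 0.015). Snai2 was higher in Id2KO than in wt EpCAM+ cells by 2.45 ± 0.34 (adjusted p = 0.0039), whereas Osr2 was lower, with a log2 fold change of -3.25 ± 0.28 (adjusted p = 0.00016).

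Vim, the intermediate filament gene of the matrix list, had 571 to 688 CPM in Id2KO Lgr5+ cells and 43.1 to 143 CPM in Id2KO EpCAM+ cells, with 269 to 430 CPM in Id2KO mesenchyme, so that the Lgr5+ libraries lay above the mesenchyme. As a share of their mean in Id2KO mesenchyme, Osr1 in the same Lgr5+ cells was at 41.4%, Tcf21 at 2.53%, Wt1 at 1.76% and Nkx3-2 at 0. The Osr1 share leans on Lgr5+ replicate 2, without which its mean was 0.778 CPM in place of 2.85 CPM. Barx1 was at 27.4%, from 7 counts in 1 Lgr5+ library and 24 counts in 1 mesenchyme library. Its Lgr5+ mean of 0.0692 CPM lies under the worth of 3 counts. The other 5 members were at 0.572 to 1.56%, and Col1a1 was at 0.759%. The difference between Vim and the members was not tested.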
